A study of Mus musculus with 12 samples.

Results

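Trp53, which encodes the transcription factor p53, and 9 of its direct target genes were followed through retinoic acid differentiation of mouse embryonic stem cells (mESCs) with and without knockdown of cathepsin L (CTSL). The 10 genes were taken by symbol (Trp53, Cdkn1a, Mdm2, Bax, Bbc3, Pmaip1, Ccng1, Phlda3, Sesn2 and Trp53inp1) from the 24495 genes of the read count table, and all 10 passed the filter on low counts that left 15532 genes to test. The 12 libraries came from the lentivirally transduced control line shSC (scramble shRNA) and the knockdown line shCTSL (shRNA to CTSL), both puromycin-selected derivatives of CCE mESCs that carry a Nanog-GFP reporter and were sorted for GFP. Day 0 libraries were made from undifferentiated mESCs, and Day 2 and Day 4 libraries from embryoid bodies cultured for that time in all-trans retinoic acid without LIF, giving 6 groups of 2 replicates. The labels call the control WT and scr, and both lines hold an integrated shRNA vector, so neither group is an untreated cell. Each condition is represented by 1 line, and which of the study's CTSL shRNAs was used is not given in the labels.

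p53 is held at a low protein level by MDM2, a ubiquitin ligase that is itself made from a p53 target gene, and it is stabilized when DNA is damaged or growth signals are abnormal. Stabilized p53 binds response elements near its target genes and raises transcripts that stop the cell cycle (Cdkn1a, Ccng1), promote mitochondrial cell death (Bax, Bbc3, Pmaip1), dampen growth signalling (Phlda3, Sesn2) or feed back on p53 (Mdm2, Trp53inp1). Embryonic stem cells are known for abundant p53 and for a p21 (Cdkn1a) level that is low until they differentiate. Control of p53 acts largely on the protein, which RNA-seq does not measure.

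The p53 response element was searched within 2500 bases of each gene's outermost annotated 5′ end (mm9), with both core tetramers intact, no spacer between the copies and at most 2 mismatches elsewhere. The matches with a single mismatch are shown because they were the closest to the consensus, and capitals mark the core tetramer of each copy.
Cdkn1a: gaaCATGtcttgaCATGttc
Ccng1: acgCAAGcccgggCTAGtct
The Cdkn1a match (chr17:29227873-29227892, plus strand) lies outside the annotated gene, with its centre 42 bases upstream of the outermost annotated start. Which annotated start these cells used was not examined. The Ccng1 match (chr11:40568438-40568457, minus strand) is intronic, with its centre 366 bases downstream of the start. Pmaip1 had a match with 2 mismatches upstream of its start, and the other 7 genes had none. Of 22269 windows of this size, 0.651% held a match with at most 1 mismatch and 3% one with at most 2, beside 2 and 3 of the 10 genes. A match describes a stretch of sequence and is not evidence of binding, which was not measured here.

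Library totals ran from 11171111 to 27155553 counts, and the smallest count of any of the 10 genes in any library was 82, for Pmaip1. Ctsl, the targeted gene, read 137 and 147 CPM (counts scaled to library size after TMM normalization) in shSC and 39.2 and 37.5 in shCTSL at Day 0, and was lower in shCTSL at Day 2 (369 and 391 against 211 and 155) and Day 4 (484 and 423 against 257 and 253). The line difference for Ctsl was called at Day 0 (log2 fold change -1.89, adjusted p = 0.00246) and at Day 2 (-1.06, adjusted p = 0.0342) and not at Day 4 (-0.83, adjusted p = 0.0896). The shCTSL Day 2 libraries stood apart from each other: their log2 ratio over genes had an SD of 0.604, against 0.178 to 0.269 in the other 5 groups. In that pair, replicate 1 minus replicate 2 had a median log2 of 0.479 in the shortest 25% of genes (exonic length up to 2282 bases) and -0.468 in the longest 25% (from 5444 bases), so values of short and long genes are given below for each of those libraries. Summed CPM of 5 mESC markers (Nanog, Pou5f1, Zfp42, Esrrb, Klf4) fell from a range of 3990 to 4300 at Day 0 to 556 to 683 at Day 2 and 200 to 242 at Day 4, with none at 0. The part of this change in cell identity in the day comparisons below was not tested, and in bulk RNA fewer cells of a type and less RNA per cell cannot be told apart.

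Over differentiation some of the 10 transcripts rose, some fell and others were not called. Here a gene is called when the adjusted p (edgeR quasi-likelihood test, Benjamini-Hochberg over all genes tested) is under 0.05 and the change is at least 1.5-fold, and log2 fold changes are given with the SE of the fit. Between Day 0 and Day 4 in shSC, Cdkn1a, Ccng1 and Trp53inp1 rose and Trp53, Bax and Pmaip1 fell, which is 3 of 10 higher and 3 lower beside 32.1% and 28.7% of all genes, shares near those of the whole transcriptome. In shCTSL, Cdkn1a, Bbc3, Ccng1, Phlda3 and Trp53inp1 rose and Trp53 and Pmaip1 fell, which is 5 of 10 higher and 2 lower beside 32.3% and 27.6% of all genes. The median change of the 10 genes on the log2 scale was 0.0936 for shSC and 0.261 for shCTSL, against 0.0287 and 0.0613 over all genes tested. The shSC median rested on single libraries: it was -0.0239 without shSC Day 4 replicate 1, 0.199 without replicate 2 of that day and 0.148 without shSC Day 0 replicate 2. Groups of 2 libraries often do not overlap, as was so for 89.7% of all genes from Day 0 to Day 4 in shSC and 88.2% in shCTSL, and for 9 of the 10 genes in each line.

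**Figure D1:**
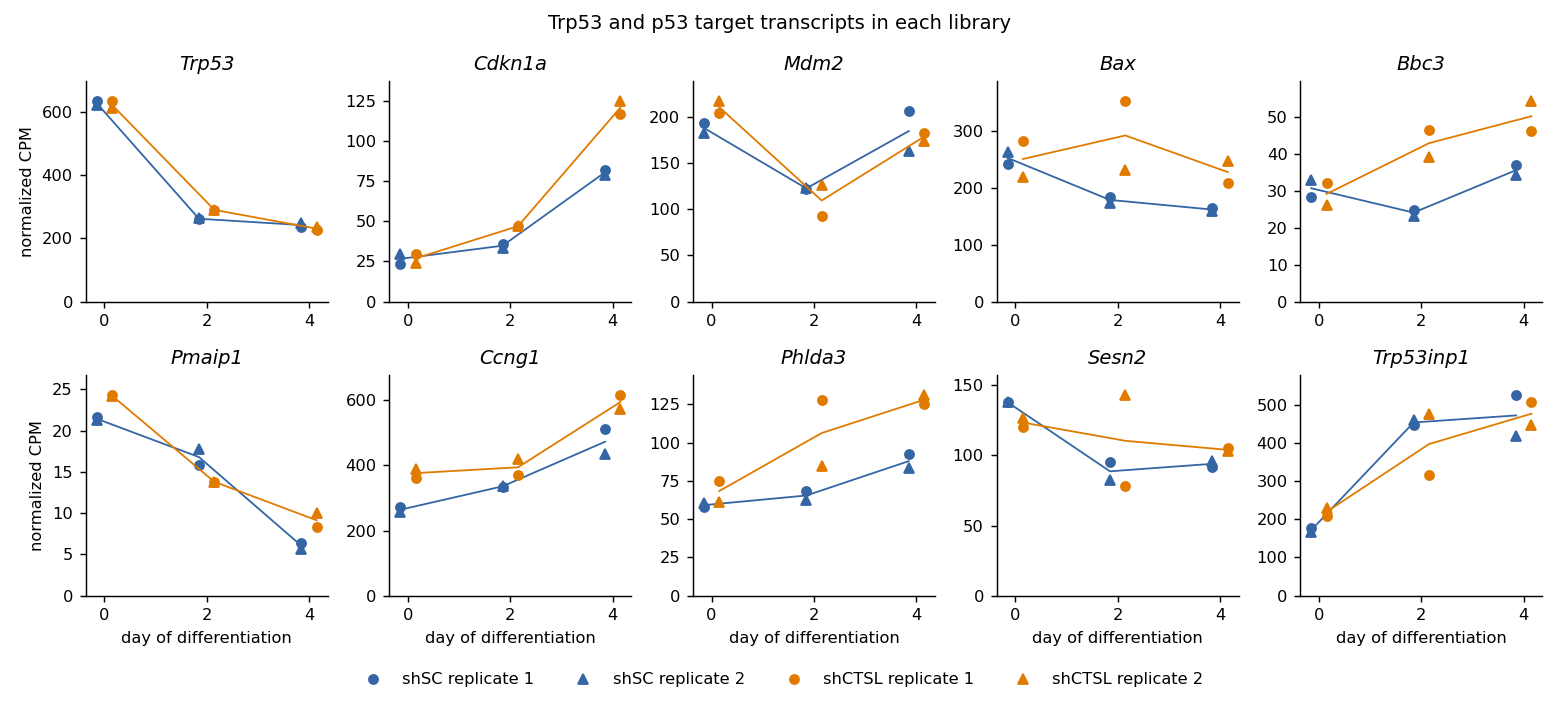
Normalized CPM (y axis, from 0) of each gene in each of the 12 libraries by day of differentiation (x axis); circles are replicate 1, triangles replicate 2, lines join the group means, blue is shSC and orange shCTSL. Trp53 drops from 611 to 634 CPM at Day 0 to 260 to 290 CPM at Day 2, while Cdkn1a reaches 79.2 to 125 CPM at Day 4.

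Fewer of the 10 genes were called by Day 2 than by Day 4 (4 against 6 in shSC and 6 against 7 in shCTSL), and fewer of all genes were called as well. In shSC, Trp53inp1 rose and Trp53, Mdm2 and Sesn2 fell (1 of 10 higher and 3 lower, beside 29.3% and 25.3% of all genes), and in shCTSL Cdkn1a, Phlda3 and Trp53inp1 rose and Trp53, Mdm2 and Pmaip1 fell (3 higher and 3 lower, beside 30.9% and 24.6%). The shares of all genes without overlap between Day 0 and Day 2 were 89.7% and 75.8%. From Day 2 to Day 4, Cdkn1a and Mdm2 rose and Pmaip1 fell in shSC (2 higher and 1 lower, beside 11.4% and 12.4%). Over the same days in shCTSL, Cdkn1a, Mdm2 and Ccng1 rose and Pmaip1 fell (3 higher and 1 lower, beside 11% and 12.4%). The day comparisons of a line share libraries, so they are not independent of each other.

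**Figure D2:**
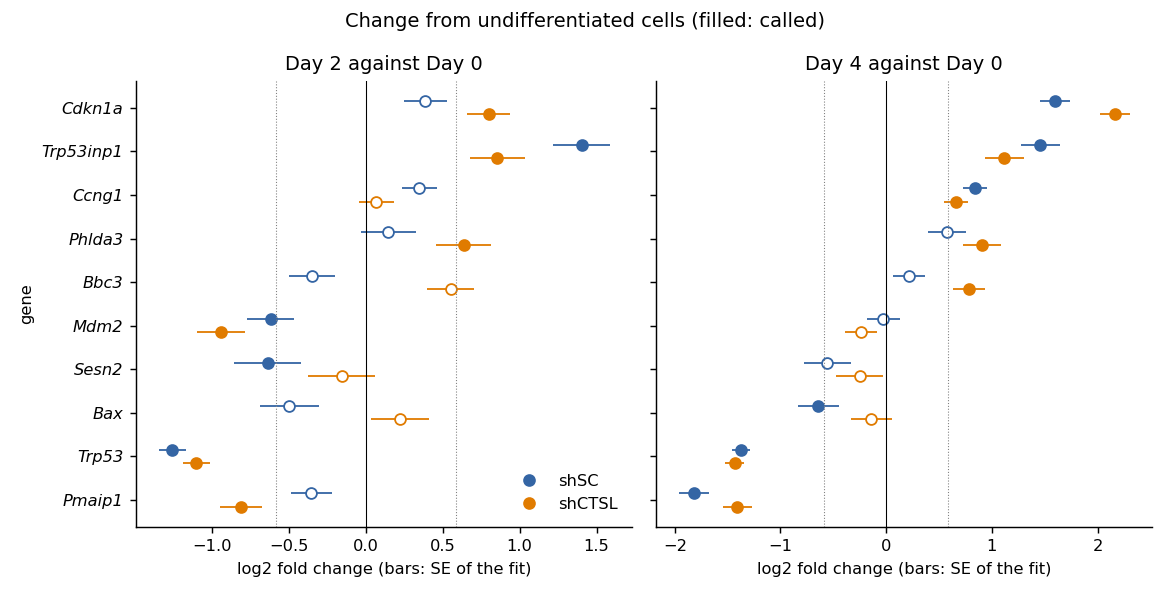
Log2 fold change from Day 0 (x axis) of each gene (y axis) at Day 2 (left) and Day 4 (right) in shSC (blue) and shCTSL (orange); bars are the SE of the fit, filled points are called and dotted lines mark 1.5-fold. At Day 4, Cdkn1a has the highest value in both lines and Pmaip1 and Trp53 the lowest, between -1.82 and -1.37.

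Trp53 (chr11:69393861-69405375, plus strand, exonic length 4045 bases) was the regulator of the set and fell early. In shSC it read 633 and 623 CPM at Day 0, 260 and 264 at Day 2 and 235 and 249 at Day 4. The shCTSL libraries read 634 and 611, then 290 and 290, then 225 and 236. Every Day 0 library lay above every later library of its line, and most of the decrease had taken place by Day 2. The log2 fold change from Day 0 to Day 2 was -1.26 (SE 0.0886) in shSC and -1.10 (SE 0.0884) in shCTSL, and from Day 0 to Day 4 it was -1.37 (adjusted p = 4.35e-07) and -1.43 (adjusted p = 3.51e-07). From Day 2 to Day 4 the values were -0.11 (adjusted p = 0.373) and -0.33 (adjusted p = 0.0175), neither called. The libraries of both lines overlapped at Day 0 and Day 4.

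Cdkn1a (chr17:29227924-29237667, plus strand, 2223 bases), which encodes the cyclin-dependent kinase inhibitor p21, moved opposite to Trp53. Control libraries held 23.5 and 29.8 CPM at Day 0, 36.0 and 33.7 at Day 2 and 82.1 and 79.2 at Day 4. Knockdown libraries held 29.8 and 24.1, then 47.0 and 47.0, then 117 and 125. Both lines overlapped at Day 0, and both shCTSL libraries exceeded both shSC libraries on Days 2 and 4. From Day 0 to Day 4 the log2 fold change was 1.6 (SE 0.141, adjusted p = 3.73e-06) in shSC and 2.16 (SE 0.143, adjusted p = 5.35e-07) in shCTSL, a 3.02-fold and a 4.48-fold increase. Most of it fell between Day 2 and Day 4, with log2 fold changes of 1.21 (adjusted p = 0.000141) and 1.36 (adjusted p = 7.48e-05). By Day 2 the change was 0.39 (adjusted p = 0.0323) in shSC, not called with all libraries and called without shSC Day 0 replicate 2 (0.61, adjusted p = 0.0138), and 0.80 (adjusted p = 0.000633) in shCTSL.

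Ccng1 (chr11:40562054-40568813, minus strand, 3512 bases) encodes cyclin G1, which recruits a phosphatase to MDM2 and has been tied to growth arrest. Its level was 271 and 257 CPM in shSC at Day 0, 335 and 337 at Day 2 and 512 and 434 at Day 4. The shCTSL libraries began at 363 and 390 CPM and read 370 and 419 at Day 2 and 616 and 574 at Day 4. On each of the 3 days both shCTSL libraries lay above both shSC libraries. Ccng1 rose from Day 0 to Day 4, and the log2 fold change was 0.84 for shSC (SE 0.113, adjusted p = 8.42e-05) and 0.66 for shCTSL (SE 0.113, adjusted p = 0.00046). From Day 2 to Day 4 the change was 0.49 (adjusted p = 0.0082) in shSC, called only without shSC Day 4 replicate 2 (0.61, adjusted p = 0.0102) among the libraries left out in turn. In shCTSL it was 0.59 (adjusted p = 0.00326), at the fold threshold, and the call was lost without shCTSL Day 2 replicate 1 (0.48) or Day 4 replicate 1 (0.54), without the filter on low counts (0.56), with limma-voom (adjusted p = 0.0729) and with only the libraries compared (adjusted p = 0.135).

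Mdm2 (chr10:117125944-117147814, minus strand, 5070 bases), the ubiquitin ligase of the p53 feedback loop, was lowest at Day 2. Control libraries held 193 and 183 CPM at Day 0, 122 and 123 at Day 2 and 206 and 163 at Day 4. Knockdown libraries held 204 and 217, then 92.8 and 126, then 183 and 174. Day 2 did not overlap with either other day in either line. The fall by Day 2 was -0.62 (SE 0.153, adjusted p = 0.00501) in shSC and -0.94 (SE 0.154, adjusted p = 0.000384) in shCTSL, on the log2 scale, and the rise from Day 2 to Day 4 was 0.59 (adjusted p = 0.0147) and 0.71 (adjusted p = 0.00659). In shSC both values sat at the fold threshold. The fall was not called without shSC Day 0 replicate 1 (-0.53, adjusted p = 0.0505), either shCTSL Day 0 library or shCTSL Day 2 replicate 1 (each -0.58), and it was -0.57, under the fold threshold, with DESeq2 or its size-factor scaling and -0.56 with only the libraries compared in the fit. The rise in shSC was not called without shSC Day 2 replicate 1 (adjusted p = 0.0871), shSC Day 2 replicate 2 (adjusted p = 0.0806) or shSC Day 4 replicate 1 (0.42, adjusted p = 0.146), nor without any 1 of the Day 0 libraries of both lines or shCTSL Day 2 replicate 1 (each 0.57). It was also 0.57 with only the libraries compared, without the filter on low counts and with the length trend removed. In shCTSL the rise was not called without shCTSL Day 2 replicate 1 (0.48), with limma-voom (adjusted p = 0.0762) or with only the libraries compared (adjusted p = 0.135). At Day 4 the shSC libraries lay on both sides of their Day 0 values.

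The pro-apoptotic members differed from one another. Pmaip1 (chromosome 18, 2646 bases), which encodes the BH3-only protein NOXA, was the least abundant of the set and fell. In shSC its libraries read 21.6 and 21.3 CPM at Day 0, 15.8 and 17.8 at Day 2 and 6.41 and 5.69 at Day 4. The shCTSL libraries read 24.3 and 24.2, then 13.8 and 13.8, then 8.28 and 9.99. Each step down was free of overlap within each line. By Day 4 the log2 fold change was -1.82 (SE 0.143, adjusted p = 1.7e-06) in shSC and -1.41 (SE 0.139, adjusted p = 9.01e-06) in shCTSL. In shSC the change to Day 2 was -0.36 (adjusted p = 0.0375, not called) and that from Day 2 to Day 4 was -1.46 (adjusted p = 5.5e-05). In shCTSL the steps were -0.81 (adjusted p = 0.000451) and -0.60 (adjusted p = 0.00927), the second of which was not called once shCTSL Day 4 replicate 1 was left out (-0.47, adjusted p = 0.097). It also went uncalled with DESeq2 (-0.57), with its scaling (-0.57), with the exonic length trend removed (-0.55), with limma-voom (-0.60, adjusted p = 0.278) and with only the libraries compared in the fit (-0.61, adjusted p = 0.176).

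Bbc3 (chr7:16894965-16903554, plus strand, 2008 bases) encodes the BH3-only protein PUMA. Its shSC values were 28.4 and 33.0 CPM at Day 0, 24.9 and 23.3 at Day 2 and 37.0 and 34.2 at Day 4. Its shCTSL values were 32.2 and 26.1, then 46.6 and 39.2, then 46.1 and 54.3. Between Day 0 and Day 2 both shSC libraries moved below, and both shCTSL libraries above, the Day 0 values of their line. Bbc3 rose from Day 0 to Day 4 in shCTSL (0.78, SE 0.152, adjusted p = 0.00111) and read 0.21 (SE 0.151, adjusted p = 0.231) in shSC. By Day 2 the log2 fold change was -0.35 (adjusted p = 0.0657) in shSC and 0.55 (adjusted p = 0.00921) in shCTSL, neither called, and the shCTSL value was called without shCTSL Day 0 replicate 1 (0.75) or shCTSL Day 2 replicate 2 (0.67). From Day 2 to Day 4 in shSC it was 0.56 (adjusted p = 0.0177), called without shSC Day 4 replicate 2 (0.62, adjusted p = 0.0491).

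Bax (chr7:52717065-52722268, minus strand, 1339 bases) encodes the pore-forming effector of mitochondrial apoptosis. Control libraries held 242 and 264 CPM at Day 0, 184 and 174 at Day 2 and 164 and 160 at Day 4. In shCTSL the values were 283 and 219 at Day 0, 353 and 232 at Day 2 and 208 and 248 at Day 4. The shSC values of successive days did not overlap, whereas those of shCTSL overlapped between all days and spread most at Day 2. Bax fell in shSC from Day 0 to Day 4 (-0.64, SE 0.192, adjusted p = 0.0126), but this call needed shSC Day 0 replicate 2 (-0.56 with it left out) and both shSC Day 4 libraries (-0.66 without the first and -0.62 without the second). The adjusted p values were then 0.0736, 0.0533 and 0.0628. The value was -0.40 once a trend with exonic length was removed. By Day 2 in shSC it was -0.50 (adjusted p = 0.0416), under the fold threshold.

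Phlda3 (chr1:137662696-137665713, plus strand, 1559 bases) encodes a repressor of the kinase Akt. Control libraries held 57.9 and 60.4 CPM at Day 0, 68.4 and 62.5 at Day 2 and 92.4 and 83.4 at Day 4. Knockdown libraries held 75.2 and 61.5, then 128 and 84.5, then 125 and 131. Day 4 lay above Day 0 without overlap in both lines, and the shCTSL Day 2 libraries differed from each other more than those of any other group. From Day 0 to Day 4 Phlda3 rose in shCTSL (0.90, SE 0.181, adjusted p = 0.00132). In shSC the value was 0.57 (SE 0.181, adjusted p = 0.0165), just under the fold threshold. It was called there without shSC Day 0 replicate 2 (0.62), without shSC Day 4 replicate 2 (0.64), without either shCTSL Day 0 library (0.59) or without shCTSL Day 2 replicate 1 (0.60), and also with DESeq2 (0.62) and with the length trend removed (0.75). The rise by Day 2 in shCTSL (0.63, adjusted p = 0.0109) failed the test with shCTSL Day 0 replicate 2 removed (0.51, adjusted p = 0.077) and was under 1.5-fold with shCTSL Day 2 replicate 1 removed (0.34) or the length trend removed (0.54). Limma-voom (adjusted p = 0.051) and a fit of only the libraries compared (adjusted p = 0.108) did not call it.

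Sesn2 (chr4:132047947-132066416, minus strand, 3475 bases) encodes sestrin 2, a stress-responsive inhibitor of mTORC1. Its shSC values were 138 and 138 CPM at Day 0, 95.2 and 82.2 at Day 2 and 91.7 and 96.4 at Day 4. The shCTSL libraries read 120 and 127, then 77.9 and 143, then 105 and 103. In shSC both later days lay below Day 0, while the shCTSL Day 2 libraries lay on both sides of their Day 0 values. The fall by Day 2 in shSC (-0.64, SE 0.22, adjusted p = 0.0267) was lost when any 1 of the 4 libraries compared was left out (adjusted p = 0.117 without either Day 0 library, 0.0561 without Day 2 replicate 1 and 0.143 without Day 2 replicate 2) and without either shCTSL Day 0 library (adjusted p = 0.0598). It was -0.58, under the fold threshold, with only the libraries compared. At Day 4 the log2 fold change was -0.56 (adjusted p = 0.0444) in shSC and -0.25 (adjusted p = 0.33) in shCTSL, neither called.

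Trp53inp1 (chr4:11083578-11101526, plus strand, 6475 bases) encodes a stress protein that promotes p53 phosphorylation and autophagy. In shSC it read 177 and 166 CPM at Day 0, 447 and 460 at Day 2 and 525 and 419 at Day 4. The shCTSL libraries read 209 and 230, then 317 and 477, then 507 and 446. All later libraries exceeded all Day 0 libraries. The rise by Day 2 was 1.40 (SE 0.184, adjusted p = 8.7e-05) in shSC and 0.86 (SE 0.182, adjusted p = 0.00209) in shCTSL, the latter lost without shCTSL Day 2 replicate 2 (0.53). By Day 4 it was 1.46 (adjusted p = 5.17e-05) and 1.12 (adjusted p = 0.000337).

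Levels were compared between genes per kilobase of annotated exon, with the exons of all GENCODE transcripts of a gene joined. The study counted reads over RefSeq genes, so the order depends on the length used. Before division by length, the mean in shSC at Day 0 was 628 CPM for Trp53 and 253 CPM for Bax. In shSC at Day 0 the order was Bax (189 CPM per kb), Trp53 (155), Ccng1 (75.2), Sesn2 (39.8), Phlda3 (37.9), Mdm2 (37.1), Trp53inp1 (26.5), Bbc3 (15.3), Cdkn1a (12) and Pmaip1 (8.1). Sesn2, Phlda3 and Mdm2 lay close together, as did Bbc3 and Cdkn1a. By Day 4 Ccng1 (135, SD 15.8, n = 2) and Bax (121, SD 2.28, n = 2) were first in shSC, Trp53 stood at 59.9, Cdkn1a at 36.3 and Pmaip1 at 2.29. In shCTSL at Day 4 Bax (170, SD 21.4, n = 2) and Ccng1 (170, SD 8.47, n = 2) led, and Cdkn1a (54.4, SD 2.27, n = 2) was close to Trp53 (56.9, SD 2.01, n = 2).

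The question of the knockdown was whether the lines differed at these genes. With edgeR none of the 10 was called between shCTSL and shSC at Day 0 (0.0386% of all genes called), Day 2 (0.0644%) or Day 4 (0.0129%), or when the 3 days were averaged (0.27%). At an unadjusted p under 0.05 the counts were 1, 4, 6 and 5 of 10, beside 7.26%, 19.4%, 12.2% and 22.6% of all genes. DESeq2 called 0, 2, 1 and 0 of 10, beside 0.309%, 0.805%, 0.85% and 0.824%. Log2 fold changes of shCTSL over shSC were above 0 in 6 of 10 genes at Day 0, 7 at Day 2, 8 at Day 4 and 9 in the mean, where they ran from -0.015 (Mdm2) to 0.48 (Phlda3) with a median of 0.254, against 0.00173 over all genes. The libraries of both lines did not overlap for 6, 7 and 7 of the 10 genes on Days 0, 2 and 4, beside 51.3%, 45.5% and 61.5% of all genes. These differences did not pass the test, and with 2 libraries a group a change below the threshold was not shown to be absent.

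**Figure D3:**
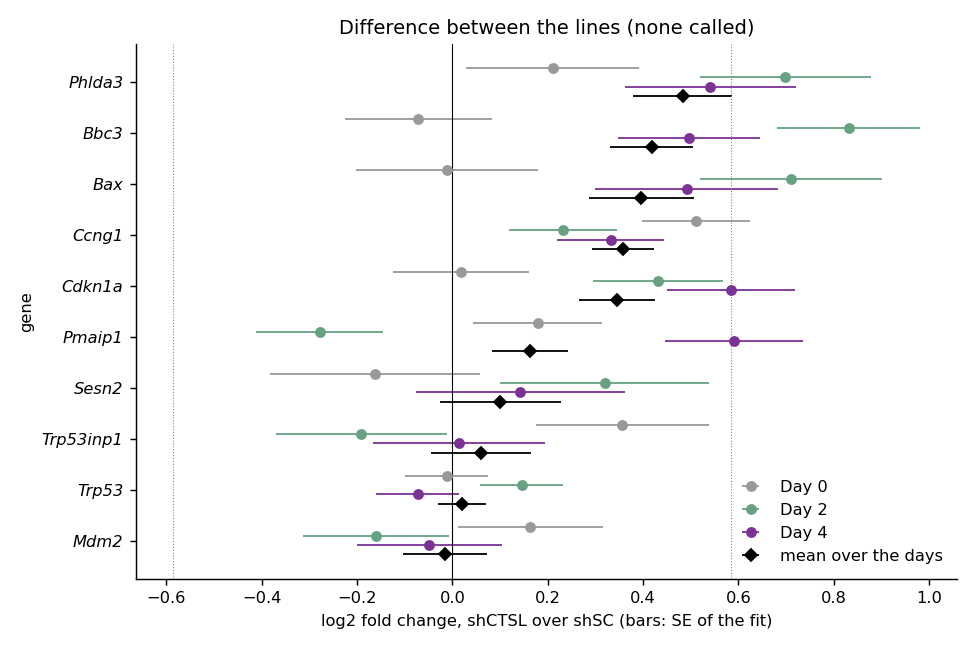
Log2 fold change of shCTSL over shSC (x axis) for each gene (y axis, ordered by the mean) on each day (circles) and averaged over the days (diamonds); bars are the SE of the fit and dotted lines mark 1.5-fold. Phlda3, Bbc3, Bax, Ccng1 and Cdkn1a have the highest means, from 0.34 to 0.48, and none is called.

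Cdkn1a had a line difference of 0.58 at Day 4 (SE 0.135, adjusted p = 0.202), of 0.43 at Day 2 (SE 0.136, adjusted p = 0.222) and of 0.34 in the mean (SE 0.0795, adjusted p = 0.0995), with libraries that did not overlap on Days 2 and 4. The Day 4 value was 0.59 with DESeq2 (adjusted p = 0.0104, where 0.85% of all genes were called) and 0.59 without both shCTSL Day 2 libraries (adjusted p = 0.000981, where 5.9% were called), and it was also called without shCTSL Day 2 replicate 1 alone. Pmaip1 had a Day 4 difference of 0.59 (SE 0.145, adjusted p = 0.21), called without both shCTSL Day 2 libraries (0.60, adjusted p = 0.00707) and without either of them. Leaving out both shCTSL Day 2 libraries called 2 of the 10 genes at Day 4 and 0 at Day 0, where 1.36% of all genes were called. Both genes were also called at Day 4 with only the libraries compared. All of these called values lay close to the fold threshold of 0.585. Limma-voom with library weights called 0 of the 10 genes at Day 4, beside 4.65% of all genes. Neither gene was called with size-factor scaling in edgeR, other filters, a replicate block or the length trend removed.

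At Day 2 the differences were 0.83 (SE 0.15, adjusted p = 0.131) for Bbc3, 0.71 (SE 0.191, adjusted p = 0.222) for Bax and 0.70 (SE 0.179, adjusted p = 0.214) for Phlda3, with no overlap between the lines. Bbc3 was called with DESeq2 (0.80, adjusted p = 0.000456), as was Phlda3 (0.67, adjusted p = 0.0358), where 0.805% of all genes were called. Apart from Bbc3, the calls turned on the shCTSL Day 2 library kept. Without replicate 1, Bbc3 (0.71, adjusted p = 0.0169) and Sesn2 (0.70, adjusted p = 0.000808) were called, beside 0.618% of all genes. Without replicate 2, Bbc3 (0.95), Bax (0.98) and Phlda3 (0.97) were called, but so were 32.3% of all genes. Bbc3 was the only one of the 10 called with either library alone, and in each case the remaining library is assumed to vary like the other groups.

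Ccng1 had a difference of 0.51 at Day 0 (SE 0.113, adjusted p = 0.257), of 0.33 at Day 4 (SE 0.113, adjusted p = 0.333) and of 0.36 in the mean (SE 0.0651, adjusted p = 0.0522), and all 6 shCTSL libraries lay above the shSC libraries of their day. In the mean, Bbc3 read 0.42 (SE 0.0871, adjusted p = 0.0755), Phlda3 0.48 (SE 0.104, adjusted p = 0.0841), Bax 0.40 (SE 0.11, adjusted p = 0.139) and Pmaip1 0.16 (SE 0.0794, adjusted p = 0.241). At Day 4, Bbc3 read 0.50 (adjusted p = 0.28), Bax 0.49 (adjusted p = 0.37) and Phlda3 0.54 (adjusted p = 0.325).

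Both the days and the lines differed with gene length over the whole transcriptome. From Day 0 to Day 4 the median log2 fold change was -0.241 in the shortest 25% of genes and 0.248 in the longest 25% in shSC, and -0.0723 and 0.168 in shCTSL. With this trend removed, 6 and 7 of the 10 genes were called as before, beside 61.2% and 60.7% of all genes. In shSC Phlda3 was then called in place of Bax. Between the lines, the trend ran the other way. With genes split into 10 equal classes by exonic length, the median of the mean line difference went from 0.218 in the shortest class (median length 1036 bases) to -0.216 in the longest (9853 bases). The 5 members with the highest mean differences included the 4 shortest, Bax, Phlda3, Bbc3 and Cdkn1a (1339 to 2223 bases), and Ccng1, at 3512 bases. Each of the 10 genes lay above the median of the class nearest to its length. That median was 0.0935 beside 0.34 for Cdkn1a and 0.0188 beside 0.36 for Ccng1. For Trp53 (0.02, SE 0.0505), Mdm2 (-0.015, SE 0.0878) and Sesn2 (0.10, SE 0.127) the margin was smaller than the SE. The 10 values come from the same 12 libraries, so they are not separate observations, and the spread within a class was not examined. With the trend removed, an alternative chosen after the data were seen, the mean difference was 0.35 for Ccng1 (adjusted p = 0.0222), 0.34 for Phlda3 (adjusted p = 0.0275), 0.31 for Bbc3, 0.25 for Cdkn1a and 0.23 for Bax, all under 1.5-fold, and the median of the 10 was 0.198. The part of length in each single value was not tested beyond this.

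**Figure D4:**
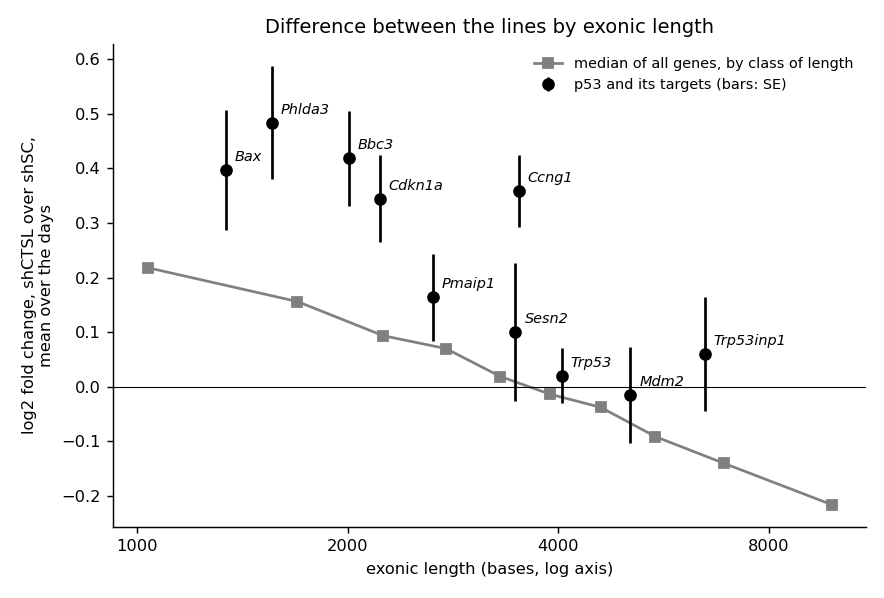
Mean log2 fold change of shCTSL over shSC (y axis) against exonic length in bases (x axis, log scale); black points are the 10 genes with the SE of the fit, grey squares the medians of all genes in 10 classes of length. The grey medians fall from 0.218 to -0.216, and each black point lies above the grey line, with the bars of Trp53, Mdm2 and Sesn2 reaching it.

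Whether the change over days differed between the lines was tested as an interaction. With edgeR none of the 10 genes was called for Day 2 (0% of all genes called) or Day 4 (0.00644%), with 3 and 2 of 10 at an unadjusted p under 0.05 (11% and 6.71% of all genes). DESeq2 called 0 and 0 (0.155% and 0.18% of all genes). The Day 2 interaction was 0.90 for Bbc3 (SE 0.215, adjusted p = 0.39), 0.72 for Bax (SE 0.27, adjusted p = 0.408) and -0.55 for Trp53inp1 (SE 0.256, adjusted p = 0.461). Without shCTSL Day 2 replicate 1, Bbc3 (0.76) and Sesn2 (0.85) were called beside 1.93% of all genes, and without replicate 2, Bbc3 (1.02), Bax (0.99), Phlda3 (0.75) and Trp53inp1 (-0.87) beside 26.5%. For Day 4 the interaction was 0.57 for Cdkn1a (SE 0.196, adjusted p = 0.668), 0.57 for Bbc3 (SE 0.214, adjusted p = 0.704) and 0.50 for Bax (SE 0.27, adjusted p = 0.779).

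Other genes of the pathway, all of which were found and tested, were counted by role from Day 0 to Day 4, to be read beside the 32.1% of all genes called higher and 28.7% called lower in shSC and the 32.3% and 27.6% in shCTSL. Of 9 further cell cycle targets, 3 rose (Btg2, Plk2 and Trp53cor1) and 5 fell (Plk3, Gtse1, Sfn, Gdf15 and Cdc25c) in both lines, with medians of -0.752 in shSC and -0.843 in shCTSL. Gtse1, a G2 regulator that restrains p53, fell from 331 and 321 to 99.7 and 94.5 CPM in shSC (-1.75, adjusted p = 1.14e-07), and Sfn, the 14-3-3 sigma gene, from 47.6 and 48.6 to 2.83 and 3.47 CPM (-3.95, adjusted p = 3.96e-07). The libraries of both days were far apart for both genes. Of 12 cell death targets, 3 rose (Apaf1, Fas and Dram1) and 4 fell (Aen, Bid, Perp and Siva1) in shSC, and 3 rose and 3 fell in shCTSL, where Siva1 was not called. Fas, Dram1 and, in the cell cycle list, Trp53cor1 stayed under 3 CPM in every library, and Gdf15 read at most 1.77 CPM after Day 0. DESeq2 did not call Fas in shSC.

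Of 14 targets in repair and metabolism, 2 rose (Polk and Sesn1) and 6 fell (Polh, Gadd45a, Tigar, Ephx1, Rps27l and Triap1) in shSC, and 1 rose and 6 fell in shCTSL, where Polk was not called. With the exonic length trend removed 4 fell in shSC, without Polh and Triap1, and 5 in shCTSL, without Triap1. DESeq2 called 5 lower in each line, without Polh in shSC and without Triap1 in shCTSL. Tigar, which lowers glycolytic flux, had the smallest adjusted p of all these genes: it fell from 127 and 136 to 24.3 and 24.1 CPM in shSC (-2.44, SE 0.099, adjusted p = 2.35e-08) and had a log2 fold change of -2.52 in shCTSL. Sesn1, the paralog of Sesn2, rose in both lines (1.48 in shSC and 1.47 in shCTSL). Medians of this list were -0.334 and -0.232.

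Among 19 regulators of p53, 5 rose (Ppm1d, Rfwd2, Cdkn2a, Hipk2 and Ppp1r13b) and 5 fell (Usp7, Atr, Chek1, Chek2 and Sirt1) in shSC. In shCTSL 4 rose and 6 fell, with Atm added and Ppm1d not called. Chek2, a DNA damage checkpoint kinase that phosphorylates p53, fell from 59.5 and 59.9 to 16.4 and 14.9 CPM in shSC (-1.93, SE 0.108, adjusted p = 1.66e-07). Cdkn2a, whose ARF product restrains MDM2 and whose INK4A product is not separated from it in these counts, rose from 12.4 and 13.8 to 75.7 and 68.7 CPM (2.46, adjusted p = 1.08e-05). In the p53 family, Trp73 fell from 7.62 and 8.18 to 1.5 and 1.66 CPM in shSC, and Trp63, at 0 and 0.124 CPM at Day 0, reached 1.37 and 1.18. The median over the regulators was -0.0536 for shSC and -0.28 for shCTSL.

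**Figure D5:**
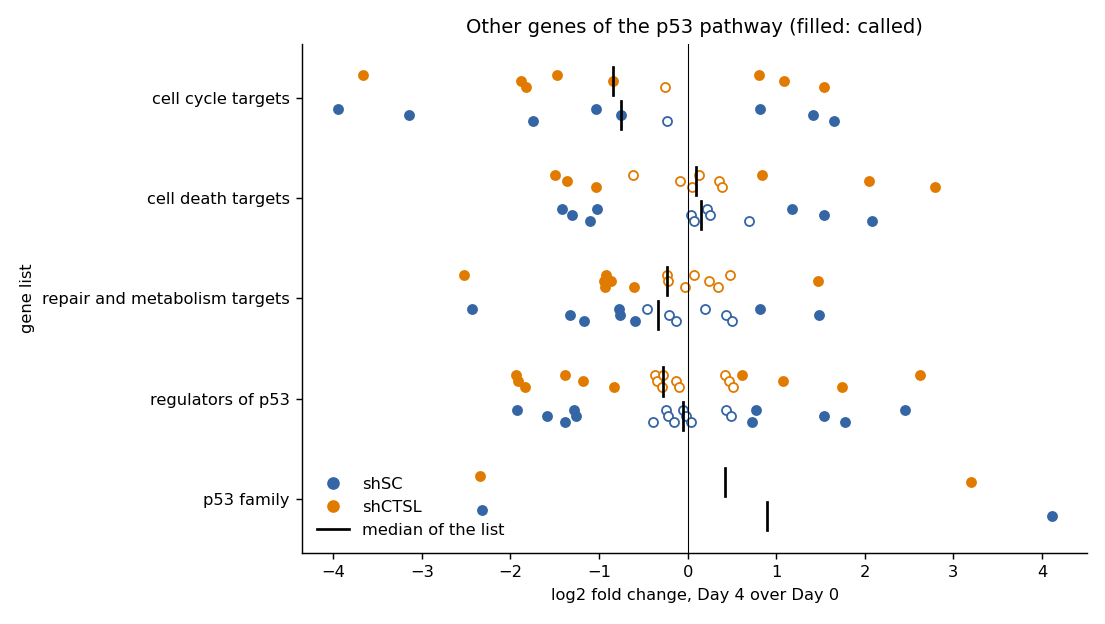
Log2 fold change from Day 0 to Day 4 (x axis) of other p53 pathway genes in 5 lists (y axis) in shSC (blue) and shCTSL (orange); each point is a gene, filled where called, and black bars are list medians. Called genes lie on both sides of 0 in every list, and the cell cycle list has the lowest medians, -0.752 and -0.843.

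Between the lines, none of these 56 genes was called on a single day with edgeR, and Perp, a desmosomal effector of p53, was the only one called in the mean over the days (0.27% of all genes). Without both shCTSL Day 2 libraries, edgeR called 6 of them at Day 4 (Btg2, Sfn, Fas and Perp higher, Hipk2 and Ep300 lower), where 5.9% of all genes were called. DESeq2 called Btg2 and Perp higher at Day 4 (0.85% of all genes) and Perp higher and Hipk2 lower in the mean (0.824%). Perp read 76.5 and 78.9 CPM in shSC and 143 and 137 in shCTSL at Day 0, 35.6 and 36.2 against 64.5 and 49.0 at Day 2, and 34.2 and 23.7 against 48.2 and 51.2 at Day 4. All 6 shCTSL libraries exceeded the shSC libraries of their day. The mean line difference was 0.76 (SE 0.0997, adjusted p = 0.02), with 0.85, 0.66 and 0.77 on Days 0, 2 and 4, none called (adjusted p = 0.202, 0.219 and 0.199).

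Likeness of pattern was described by Pearson's r of log2 CPM over the 12 libraries, which share their days and therefore the change of cell type. The genes most like Trp53 were E2f4 (r = 0.999), Eif3b (0.997), Cars (0.997), Shmt1 (0.997) and Soga3 (0.996). Those most like Cdkn1a were Sema3b (0.986), Krt19 (0.985), Hbb-y (0.981), Car7 (0.98) and Upk1a (0.979).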

How the data were processed

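RNA-seq of 12 libraries (2 replicates in each of 6 groups) was analysed. The authors prepared poly(A) directional libraries, aligned reads to mm9 with STAR 2.3.0e, filtered alignments with SAMtools 0.1.19 and deposited raw read counts per gene from featureCounts 1.6.2. No strand setting of the counting was found in the sources, and no exon of the 10 genes overlapped an exon of another annotated gene. Columns were matched to samples by title. From these counts, CPM and log2 fold changes were computed with edgeR 4.0.16 (TMM, filterByExpr with a minimum count of 10, quasi-likelihood fit of 6 group means, 6 residual degrees of freedom). The study itself used DESeq2 1.16.1. Calls required a Benjamini-Hochberg adjusted p under 0.05 over 15532 genes and 1.5-fold. Library totals of 11171111 to 27155553 counts set the counting precision. The study describes biological replicates, but the labels do not tie them to separate cultures, so p-values measure only the spread between these libraries, which may be technical. The replicate numbers did not pair the libraries (2 of 15 pairs of groups correlated over 0.1). DESeq2 1.42.0, limma 3.58.1 (voom with library weights), other filters and scalings, left-out libraries and a trend with exonic length (GENCODE annotation of mm9, 97.6% of tested genes matched) were alternatives. Scripts were tested on simulated data. All 10 genes were named. From the other pathway lists, values were given for the 3 called genes with the smallest adjusted p from Day 0 to Day 4 in shSC and for genes called between the lines. Sfn, Sesn1, Cdkn2a, Trp63, Trp73, Fas, Dram1, Trp53cor1 and Gdf15 were chosen after their values were seen. The genes and lists were chosen with earlier results of these data known. Sequence of Pmaip1 is not reported here.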

Additional observations from a re-analysis of the deposited data

How the results depend on the processing

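Log2 fold changes of at least 1.5 as the threshold left 0, 2 and 0 of the 10 genes called from Day 0 to Day 2, Day 0 to Day 4 and Day 2 to Day 4 in shSC (main counts 4, 6 and 3) and 0, 1 and 0 in shCTSL (main counts 6, 7 and 4). Without a fold threshold 8 were called from Day 0 to Day 2 and 5 from Day 2 to Day 4 in shSC. With only the libraries compared in the fit, 2 were called from Day 0 to Day 2 in shSC, 1 from Day 2 to Day 4 in shCTSL and 2 between the lines at Day 4. Limma-voom with library weights left 1 from Day 2 to Day 4 in shCTSL, beside 8.08% of all genes (11% higher and 12.4% lower in the main fit). Between the lines none was called in the main fit. DESeq2 called 2 at Day 2 and 1 at Day 4, beside 0.805% and 0.85% of all genes. Omitting the filter on low counts called 1 at Day 2. Leaving out both shCTSL Day 2 libraries called 2 at Day 4, beside 5.9% of all genes. Leaving out 1 library at a time gave 2 to 4 genes from Day 0 to Day 2, 5 to 7 from Day 0 to Day 4 and 2 to 5 from Day 2 to Day 4 in shSC, and 5 to 7, 7 to 7 and 2 to 6 in shCTSL. Between the lines it gave 0 to 0 at Day 0, 0 to 3 at Day 2, 0 to 2 at Day 4 and 0 to 0 in the mean, and for the interaction 0 to 4 at Day 2 and 0 to 0 at Day 4. The share of all genes called also moved with the setting, so a moved count is not particular to these 10 genes. That share is not given beside every count here, and counts without it are not read as a result about the 10 genes. Apart from shCTSL Day 2, given in the report, the cause of these changes was not tested. The fit with a replicate block gave 4, 6 and 3 genes in shSC, 6, 7 and 4 in shCTSL and 0 in each line comparison and interaction, and so changed no count. Over all values of the 10 genes, 2523 alternatives kept the direction and the call, 78 lost a call, 51 gained one and 48 reversed. This tally includes settings that changed only the fold threshold and so could not reverse. It also includes fits without a library outside the comparison, and values called in neither fit count as kept, so it does not measure robustness. The line difference of Mdm2 in the mean (-0.015, not called) reversed to 0.038 with the trend in exonic length removed. It reversed to 0.0036 and 0.0438 when replicate 1 of shSC at Day 0 or Day 4 was left out and to 0.0616 when that of shCTSL at Day 2 was. Its values without 1 library ran from -0.0956 to 0.0616. Other means changed sign as well: without shCTSL Day 2 replicate 2, 7 of the 10 mean line differences were above 0, against 9 in the main fit. The median change of the 10 genes from Day 0 to Day 4 in shSC (0.0936) was -0.0239 without shSC Day 4 replicate 1. With 2 libraries a group, counts from 82 (Pmaip1) upward and shCTSL Day 2 libraries that differ from each other, a small difference between the lines was not detectable.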

Other observations

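Across the 12 libraries, log2 CPM of the 10 genes did not vary as 1 block, which is given as a description since the libraries share their days. Trp53 and Trp53inp1 had the most negative correlation of any pair (Pearson's r = -0.958), followed by Cdkn1a and Pmaip1 (-0.883). Bbc3 and Phlda3 had the highest (0.91), with Cdkn1a and Ccng1 at 0.884. Trp53 had r = -0.794 with Cdkn1a and 0.807 with Pmaip1. Mdm2 had r = 0.008 with Cdkn1a and 0.031 with Pmaip1.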
